A study of Homo sapiens with 10 samples.

Results

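Heme biosynthesis was followed through 8 enzymes, ALAS1, ALAS2, ALAD, UROS, UROD, CPOX, PPOX and FECH, in MEG-01, a line of human leukemia cells with megakaryoblast features. The enzymes were taken by name, as every array probe other than controls whose RefSeq accession belongs to one of these genes. This gave 10 of the 42405 probes and 8 of the 17379 genes that could be tested. Cells received 200 nM of either the miR-1225-3p precursor or a scrambled control RNA by nucleofection and were collected 24 hours later, without any other genotype or treatment difference in the labels. Each group held 5 cultures, described as independent experiments run at the same time, and each culture was read on 1 single-colour (Cy3) Agilent array. One label of the control cultures reads as no treatment, but their titles and the study's methods say that they were transfected with the control RNA, and both groups are taken as transfected. MEG-01 is 1 leukemic line used in place of primary megakaryocytes, and transfection reaches only a part of the cells, so each value is an average over transfected and untransfected cells.

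Heme is made in a chain of enzymes that begins and ends in the mitochondrion. The aminolevulinate synthases join glycine to succinyl-CoA, and this first step sets the pace of the pathway. ALAS1 is the housekeeping form found in all tissues and is repressed by heme, while ALAS2 is the erythroid form, encoded on the X chromosome and controlled by GATA1 and by iron. In the cytosol ALAD joins aminolevulinate into porphobilinogen, and further along the cytosolic steps UROS closes the ring and UROD trims its side chains. CPOX and PPOX oxidize the ring back in the mitochondrion, and FECH inserts iron. Platelets descend from the same progenitors as red cells, and hemoglobin synthesis is the largest consumer of heme in the erythroid branch.

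The RNA that distinguishes the groups is shown first, followed by the control regions of 4 of the enzymes. The mature microRNA lies on the minus strand at chr16:2090195-2090216 (GRCh38.p14, RefSeq) and is written 5′ to 3′ with the seed, bases 2 to 8, in capitals.
hsa-miR-1225-3p: uGAGCCCCugugccgcccccag

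The 250 bases before the annotated start were available for 7 of the 8 enzymes, in 9 windows, because ALAD and PPOX have a second start. Both strands were searched for 4 strings. AGATAA is bound by GATA factors. TGACTCA is a core bound by NFE2 and BACH1. The GC box of SP1 is GGGCGG. The core of NRF1 sites is GCATGCGC. None of these 4 strings overlaps another in the windows shown. The windows of ALAS1 and ALAS2 are printed because they encode isozymes of the first step, and those of CPOX and PPOX because they are the later enzymes with the GATA string. Each reads 5′ to 3′ on the gene's own strand and ends at the base before the start, with the matches in capitals.
ALAS1, chr3:52197833-52198082, plus strand: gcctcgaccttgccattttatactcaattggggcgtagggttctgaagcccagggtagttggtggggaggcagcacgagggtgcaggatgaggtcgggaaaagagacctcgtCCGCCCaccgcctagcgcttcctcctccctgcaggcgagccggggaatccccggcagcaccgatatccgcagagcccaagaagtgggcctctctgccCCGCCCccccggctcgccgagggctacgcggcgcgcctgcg
ALAS2, chrX:55030978-55031227, minus strand: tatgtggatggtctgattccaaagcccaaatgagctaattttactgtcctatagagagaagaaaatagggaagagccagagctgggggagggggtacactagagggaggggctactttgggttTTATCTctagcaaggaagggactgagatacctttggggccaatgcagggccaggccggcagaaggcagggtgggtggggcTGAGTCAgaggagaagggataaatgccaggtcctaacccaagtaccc
CPOX, chr3:98593612-98593861, minus strand: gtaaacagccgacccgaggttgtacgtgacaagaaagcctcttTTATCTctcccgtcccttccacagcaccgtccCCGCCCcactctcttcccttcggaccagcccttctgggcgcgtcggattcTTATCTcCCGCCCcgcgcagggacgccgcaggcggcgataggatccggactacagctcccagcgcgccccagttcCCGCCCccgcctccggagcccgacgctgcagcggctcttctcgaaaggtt
PPOX, second start, chr1:161166396-161166645, plus strand: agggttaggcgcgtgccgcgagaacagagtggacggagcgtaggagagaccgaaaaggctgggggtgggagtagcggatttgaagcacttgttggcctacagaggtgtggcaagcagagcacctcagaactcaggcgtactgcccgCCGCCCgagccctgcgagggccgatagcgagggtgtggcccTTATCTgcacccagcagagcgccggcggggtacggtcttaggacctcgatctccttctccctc

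AGATAA, or TTATCT on the other strand, was found in the windows of 3 enzymes, ALAS2, CPOX and PPOX, against 9.17% of 35116 human promoter windows of the same length. TGACTCA was found only in the window of ALAS2 among the 9, against 4.2% of all windows. GGGCGG was found in 7 of the 9 windows and 6 of the 7 genes, every one except ALAS2, against 42.6% of all windows. The windows of ALAD overlap and share a match. Windows with GGGCGG held from 53.6% (UROD) to 74% (ALAD) G and C, beside a median of 58% over all windows. The part of base content in this count was not tested. GCATGCGC was found in none of the 9, against 2.63% of all. ALAS1 and ALAS2 thus share none of these strings in this stretch. The matches describe letters only and say nothing of a factor's binding in these cells.

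On each array, signals were well above background at 41.95% to 61.18% of the 58717 spots other than controls, without any saturated spot, and precision is limited by how many arrays there are. Levels are given as normalized log2 signal (log2 of the background-corrected signal after cyclic loess between arrays), and they compare arrays for the same probe, not different genes. A difference of 1 is a doubling. One array stood apart from its label. On the first principal component, which held 69.6% of the variance, miR-1225-3p replicate 5 scored 56.74, inside the range of the scrambled arrays (48.65 to 79.87), whereas miR-1225-3p replicates 1 to 4 scored between -133.42 and -52.98. It was kept in all comparisons, and each enzyme is also described without it. The arrays lay on 2 slides, each with both groups.

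Of the 8 enzymes, 4 differed between the groups (limma, adjusted p under 0.05 after Benjamini-Hochberg over 17379 genes). ALAS1 and ALAD were lower in miR-1225-3p cells and PPOX and FECH higher. ALAS2, the other gene of the first step, did not pass, and neither did CPOX. CPOX passed, higher, when miR-1225-3p replicate 5 was left out. It also passed under some settings with all 10 arrays, such as scaling to the 75th percentile (limma adjusted p = 0.0214). ALAD entered the test through its scrambled arrays alone, since its signal was near background in miR-1225-3p cells, so that some difference had to follow from the filter. Among the 7 enzymes well above background on all 10 arrays 3 passed. A fit over such genes alone also called 3 enzymes, and 4697 of its 12048 genes. Of all genes tested, 35% differed (17% were higher and 18.1% lower), and the 4 of 8 enzymes are to be read against that share. The groups did not overlap for 2 of the 8 enzymes, ALAS1 and ALAD, against 12.7% of all genes, and the filter limits ALAD here too. Without miR-1225-3p replicate 5, 5 of the 8 differed, against 55.4% of all genes. The median log2 fold change of the 8 enzymes was 0.12, beside -0.06 for all genes, with 4 enzymes above 0 and 4 below. In these bulk samples fewer cells of a type and less RNA per cell cannot be told apart.

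**Figure D1:**
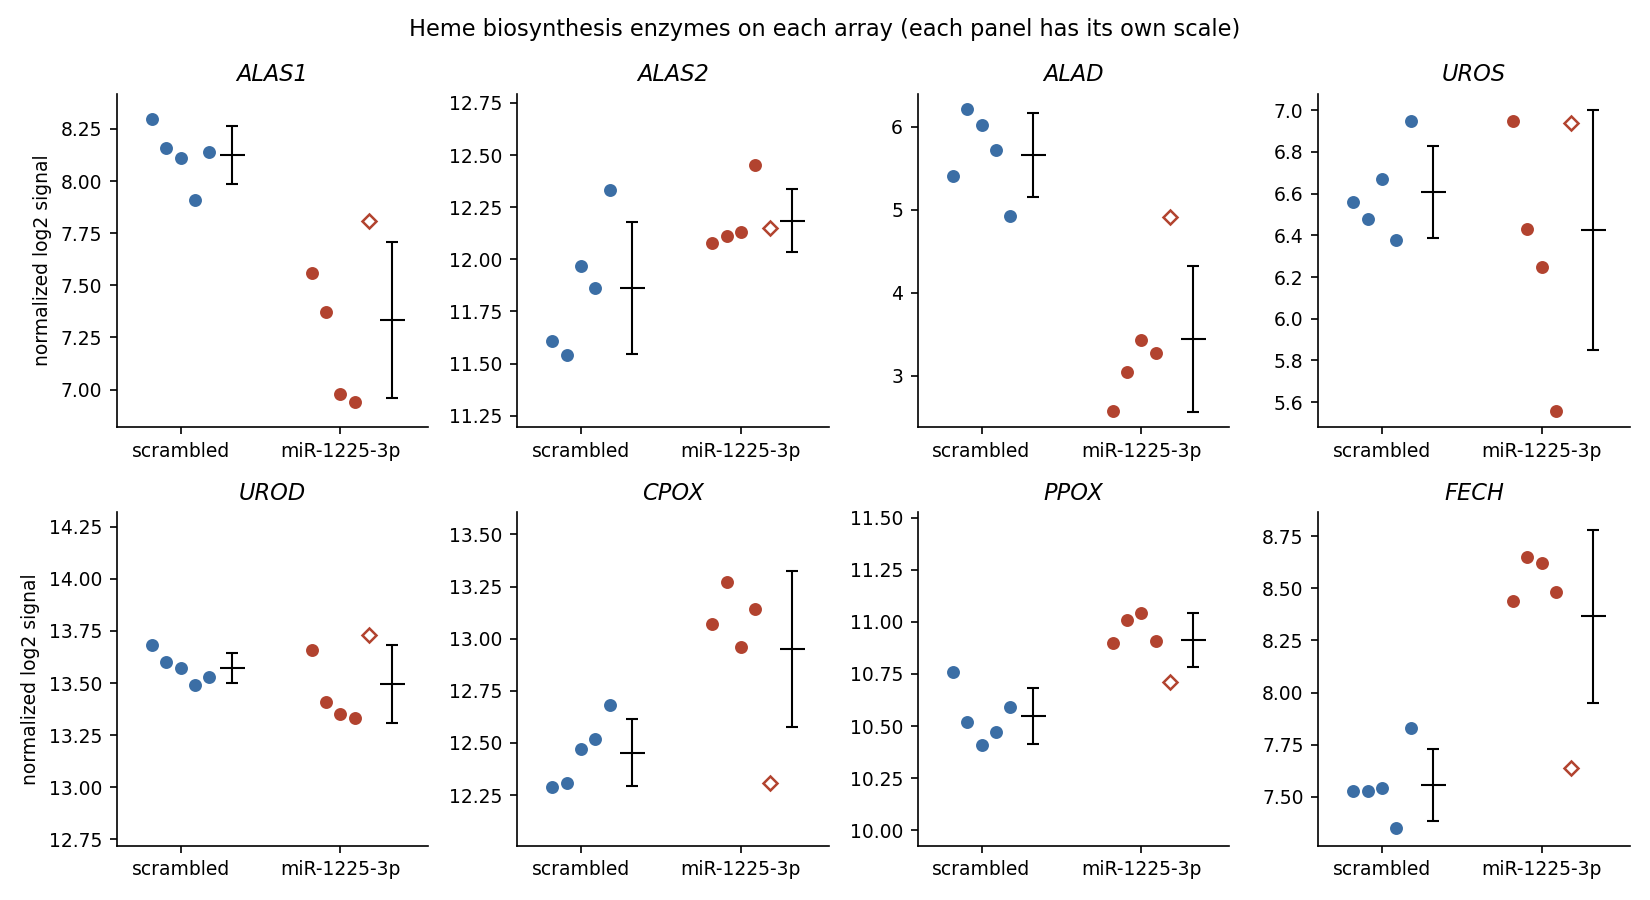
Normalized log2 signal of each enzyme on each of the 10 arrays, with blue points for scrambled, red points for miR-1225-3p, an open diamond for miR-1225-3p replicate 5, and a bar for the mean and SD (n = 5) of each group. The groups separate for ALAS1 and, by a narrow margin, ALAD, and the open diamond sits beside the scrambled points for CPOX and FECH.

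ALAS1, the housekeeping synthase, fell. Its signal was 7.56, 7.37, 6.98, 6.94 and 7.81 on miR-1225-3p arrays 1 to 5. In scrambled cells, arrays 1 to 5, it was 8.30, 8.16, 8.11, 7.91 and 8.14. Every miR-1225-3p array lay below every scrambled array, and replicate 5 was the closest of them. The means were 7.33 ± 0.374 and 8.12 ± 0.140 (SD, n = 5 each). The log2 fold change was -0.79 (SE 0.185, 95% interval -1.20 to -0.38), or 1.73-fold lower in miR-1225-3p cells, with an adjusted p of 0.0166 in limma and an exact two-sided permutation p of 0.00794, the smallest that 5 against 5 allows. The drop was -0.72 within slide 1 and -0.79 within slide 2. Leaving out each array in turn kept the adjusted p under 0.05. The drop was -0.91 when miR-1225-3p replicate 5 was the array left out (limma adjusted p = 0.00118).

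ALAS2, the erythroid synthase that supplies hemoglobin, did not pass the test. Its signal was 12.08, 12.11, 12.13, 12.45 and 12.15 on miR-1225-3p arrays 1 to 5. On scrambled arrays 1 to 5 it was 11.61, 11.54, 11.97, 11.86 and 12.33. The miR-1225-3p arrays were close together around the upper end of the scrambled range, and scrambled replicate 5 lay above 4 of them. The log2 fold change was 0.32 (SE 0.169, 95% interval -0.05 to 0.70, limma adjusted p = 0.149, exact permutation p = 0.0873). The interval holds both no change and a rise of 0.70, so the data do not show that ALAS2 was unaffected. Within slide 1 the difference was 0.12 and within slide 2 it was 0.54. It was 0.33 without miR-1225-3p replicate 5 (limma adjusted p = 0.139). With arrays scaled to their 75th percentile it was 0.84 (limma adjusted p = 0.0209).

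An offset between arrays cancels in the contrast of the isozymes, because both probes were read on the same array. The signal of ALAS2 minus that of ALAS1 ran from 4.33 to 5.51 on the miR-1225-3p arrays and from 3.31 to 4.19 on the scrambled arrays. The groups did not overlap, and miR-1225-3p replicate 5 held the lowest value of its group. The size of this difference carries the response of each probe, so that only its shift between groups can be read. The means were 4.85 ± 0.477 and 3.74 ± 0.379 (SD, n = 5 each), a shift of 1.11 toward ALAS2 (exact two-sided permutation p = 0.00794). The shift was 1.24 without miR-1225-3p replicate 5, 1.48 without normalization and 0.78 with a normexp background correction. It does not say which isozyme changed. The comparison was listed with earlier results of these data known, and it draws on the same values as the results of the separate genes above, so that its p adds no independent evidence.

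**Figure D2:**
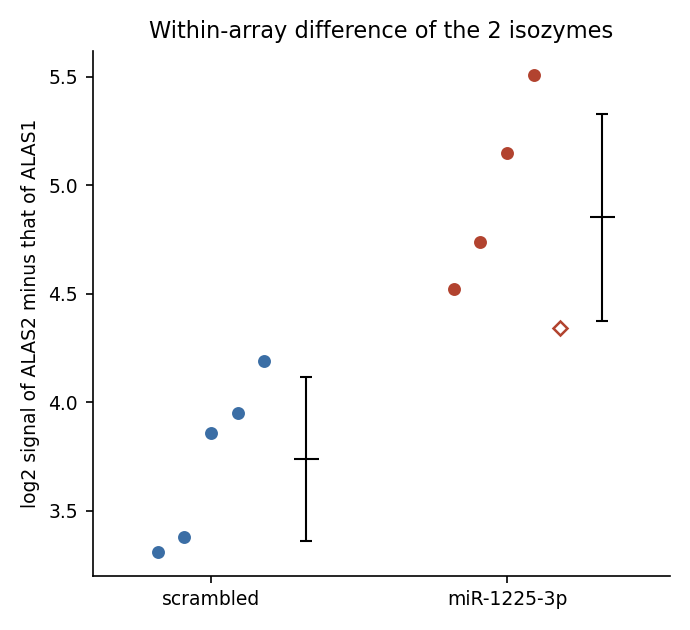
Normalized log2 signal of ALAS2 minus that of ALAS1 on the same array, for the 5 scrambled (blue) and 5 miR-1225-3p arrays (red, open diamond for replicate 5), with mean and SD. All miR-1225-3p values, from 4.33 to 5.51, lie above all scrambled values, from 3.31 to 4.19.

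ALAD, the enzyme of the second step and the target of lead poisoning, was lower in miR-1225-3p cells, where its signal was near background. Its signal was 2.57, 3.04, 3.43, 3.27 and 4.91 on miR-1225-3p arrays 1 to 5. The scrambled arrays, in the same order, gave 5.41, 6.22, 6.02, 5.72 and 4.93. The groups were only just apart, since miR-1225-3p replicate 5 (4.91) nearly met scrambled replicate 5 (4.93). ALAD was well above background on all 5 scrambled arrays but on only 1 of the 5 miR-1225-3p arrays. The means were 3.44 ± 0.882 and 5.66 ± 0.511, a log2 fold change of -2.21 (SE 0.414, 95% interval -3.13 to -1.30, limma adjusted p = 0.0136, exact permutation p = 0.00794). The probe passed the filter only through the group where it was high, so the tests do not stand as support on their own. The measured ratio of 4.64-fold lower rests mostly on signals that were not well above background. With each miR-1225-3p array raised to at least its lowest signal well above background, the drop was 3.74-fold. With a normexp background correction, which lifts dim signals, the log2 fold change was -0.53 (limma adjusted p = 0.0169). The drop was -2.65 within slide 1 and -2.09 within slide 2, and -2.58 without miR-1225-3p replicate 5 (limma adjusted p = 0.000139). Leaving out each array in turn kept the adjusted p under 0.05, with the same limit from the filter.

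UROS and UROD, the cytosolic enzymes that close and trim the ring, did not pass the test. UROS, whose loss causes congenital erythropoietic porphyria, gave 6.95, 6.43, 6.25, 5.56 and 6.94 on miR-1225-3p arrays 1 to 5. It gave 6.56, 6.48, 6.67, 6.38 and 6.95 on scrambled arrays 1 to 5. The groups overlapped throughout, with miR-1225-3p replicate 4 alone well below the rest. The log2 fold change was -0.19 (SE 0.261, 95% interval -0.77 to 0.39, limma adjusted p = 0.583), and a second UROS probe, above background on 7 of the 10 arrays, gave -0.24. UROD, whose deficiency underlies porphyria cutanea tarda, gave 13.66, 13.41, 13.35, 13.33 and 13.73 on miR-1225-3p arrays 1 to 5. It gave 13.68, 13.60, 13.57, 13.49 and 13.53 on scrambled arrays 1 to 5. Here 3 miR-1225-3p arrays lay below all scrambled arrays and replicate 5 above them. The log2 fold change of UROD was -0.08 (SE 0.125, 95% interval -0.36 to 0.20, limma adjusted p = 0.626). The direction of UROD was set by the scaling, since it was 0.52 after scaling to the 75th percentile (limma adjusted p = 0.0251), 0.04 after quantile normalization and 0.10 without normalization. That of UROS turned to 0.03 without miR-1225-3p replicate 4. UROS was at -0.32 and UROD at -0.14 once miR-1225-3p replicate 5 was left out.

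CPOX, which oxidizes coproporphyrinogen in the space between the mitochondrial membranes, was higher on 4 of the 5 miR-1225-3p arrays. Its signal was 13.07, 13.27, 12.96, 13.14 and 12.31 on miR-1225-3p arrays 1 to 5. Scrambled arrays 1 to 5 gave 12.29, 12.31, 12.47, 12.52 and 12.68. The overlap came from miR-1225-3p replicate 5 alone, which lay at the bottom of the scrambled range. The log2 fold change was 0.49 (SE 0.188, 95% interval 0.08 to 0.91, limma adjusted p = 0.0625, exact permutation p = 0.0397). This did not pass over all genes. With replicate 5 left out the difference was 0.65 (limma adjusted p = 0.00194) and the groups were apart. It was 0.69 within slide 1 and 0.38 within slide 2.

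PPOX, the enzyme after CPOX and the gene of variegate porphyria, was slightly higher. Its signal was 10.90, 11.01, 11.04, 10.91 and 10.71 on miR-1225-3p arrays 1 to 5. On scrambled arrays 1 to 5 it was 10.76, 10.52, 10.41, 10.47 and 10.59. Only miR-1225-3p replicate 5 and scrambled replicate 1 crossed. The means were 10.91 ± 0.129 and 10.55 ± 0.136, a log2 fold change of 0.36 (SE 0.122, 95% interval 0.09 to 0.63), or 1.29-fold higher, with an adjusted p of 0.0429 in limma and an exact permutation p of 0.0159. The call was a narrow one. It was lost in 16 of 27 alternatives, among them a slide block (limma adjusted p = 0.0512) and the loss of any single array except miR-1225-3p replicate 5 and scrambled replicate 1 (adjusted p from 0.0652 to 0.102). The direction was the same in all 27. With miR-1225-3p replicate 5 left out the difference was 0.41 (limma adjusted p = 0.0102), and within slides 1 and 2 it was 0.36 and 0.40.

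FECH, the ferrochelatase that completes heme, rose. Its signal was 8.44, 8.65, 8.62, 8.48 and 7.64 on miR-1225-3p arrays 1 to 5. On scrambled arrays 1 to 5 it was 7.53, 7.53, 7.54, 7.35 and 7.83. miR-1225-3p arrays 1 to 4 lay between 8.44 and 8.65, above all scrambled arrays, and replicate 5 lay among the scrambled arrays. The means were 8.37 ± 0.416 and 7.56 ± 0.173, a log2 fold change of 0.81 (SE 0.203, 95% interval 0.36 to 1.26), or 1.75-fold higher, with an adjusted p of 0.0190 in limma and an exact permutation p of 0.0159. Without miR-1225-3p replicate 5 it was 0.99, or 1.99-fold (limma adjusted p = 0.000225). Within slide 1 it was 0.92 and within slide 2 it was 0.80. The call was lost without miR-1225-3p replicate 2 (limma adjusted p = 0.0531) or replicate 3 (0.0516), with log2 fold changes of 0.74 and 0.75. A second FECH probe was not well above background on any array and gives no value.

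**Figure D3:**
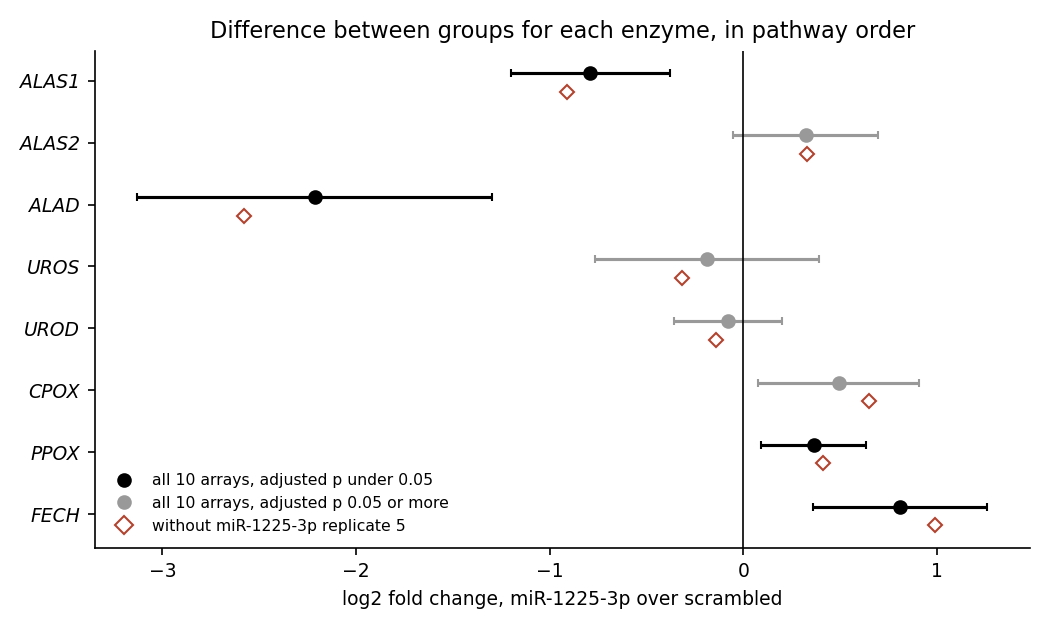
Log2 fold change of each enzyme, miR-1225-3p over scrambled, in the order of the pathway, with 95% intervals from limma on all 10 arrays (black, adjusted p under 0.05, and grey otherwise) and open diamonds for the value without miR-1225-3p replicate 5. ALAS1 (-0.79) and ALAD (-2.21) lie to the left of 0 and PPOX (0.36) and FECH (0.81) to the right, while the intervals of ALAS2, UROS and UROD cross 0.

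How arrays are scaled moves many genes at once, though not by the same amount, and many genes differed here. From cyclic loess to the 75th percentile UROD went from -0.08 to 0.52, while UROS went from -0.19 to -0.17. The median log2 fold change of all genes was -0.06 after cyclic loess, 0.08 after quantile normalization, 0.16 after scaling to the 75th percentile and -0.26 without normalization. The median is thus no measure of the shift of a single gene. ALAS1 and ALAD stayed lower (ALAS1 from -1.06 to -0.51, ALAD from -2.75 to -0.53) and FECH, PPOX, CPOX and ALAS2 stayed above 0 under all 5 scalings. FECH ran from 0.56 to 0.99 and CPOX from 0.44 to 1.05. Scaled to the 75th percentile, 7 of the 8 enzymes passed the test, with UROS the exception, where 7147 of all 17379 genes passed. Without normalization only ALAD did, where 1266 of all 17379 genes passed.

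**Figure D4:**
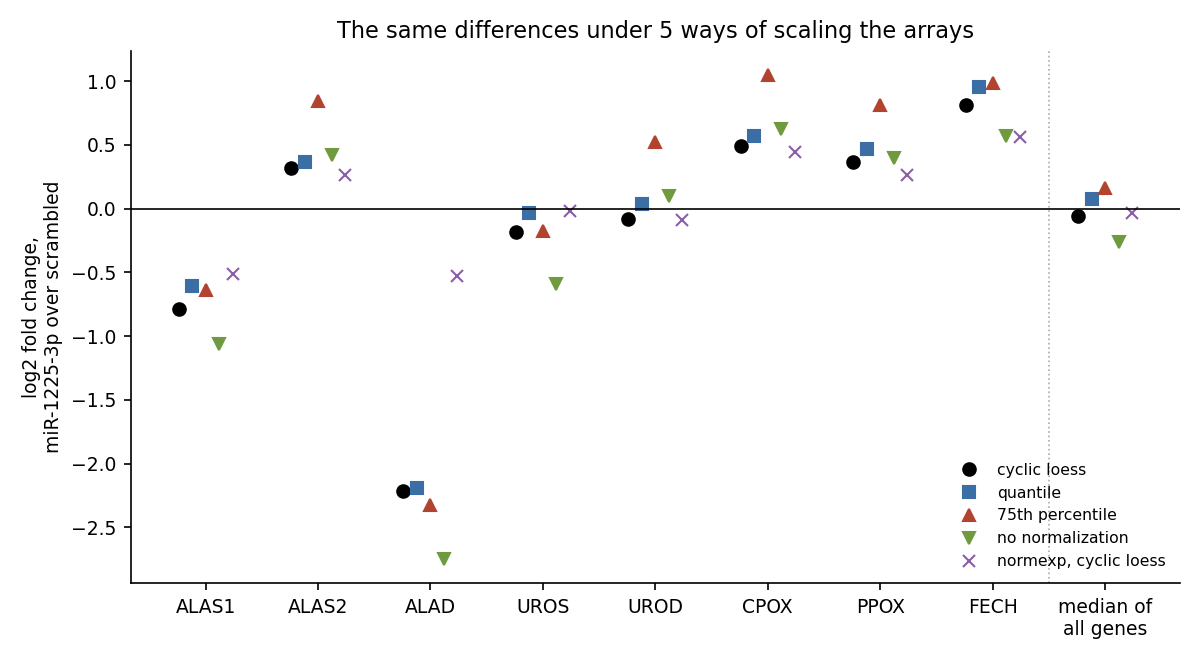
Log2 fold change of each enzyme, miR-1225-3p over scrambled, under 5 treatments of the array signals, with the median of all 17379 genes at the right. ALAS1 and ALAD are below 0 and ALAS2, CPOX, PPOX and FECH above 0 in all 5, whereas UROD runs from -0.09 to 0.52.

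After cyclic loess FECH was, narrowly before ALAS1, the enzyme with the largest difference (0.81 against -0.79) among those well above background on all 10 arrays. The order turned without normalization, where ALAS1 was at -1.06 and FECH at 0.57, and at the 75th percentile CPOX exceeded FECH (1.05 against 0.99). Over the 10 arrays, the genes whose signal was most like it, of 17302 others, were NSUN2, an RNA methyltransferase (Pearson r = 0.994), the transcript ENST00000395453 (0.990), CEP135, a centriole protein (0.989), CISD2, an iron-sulfur protein (0.987), and PRDM10, a zinc finger protein (0.987). These values describe arrays that share the 2 groups and their scaling, and the 5 genes were also higher in miR-1225-3p cells, by 0.42 to 1.26 on the log2 scale.

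Around the 8 enzymes stand genes that feed the pathway, use its product or regulate it, listed for this comparison as 34 genes, of which 31 passed the filter on dim probes. Of these, 10 passed the test, 4 higher and 6 lower, with a median log2 fold change of -0.09 beside -0.06 for all genes, and 16 passed without miR-1225-3p replicate 5, 8 higher and 8 lower. Neither count exceeds the share of all genes called, 35% and 55.4%.

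Among 17 genes of substrate supply and the mitochondrial machinery, 3 were higher and 3 lower, close to the 35% of all genes called. Without miR-1225-3p replicate 5 these were 7 and 3, close to the 55.4% of all genes called then. TMEM14C, needed to bring protoporphyrinogen into the matrix, was higher by 0.65 on the log2 scale (SE 0.149, limma adjusted p = 0.0159). Its 5 miR-1225-3p arrays, from 12.86 to 13.54, all lay above the scrambled arrays, from 12.63 to 12.76, and a second probe gave 0.48 (limma adjusted p = 0.0488). ABCB10, a partner of the iron importer mitoferrin, was higher by 0.65 (limma adjusted p = 0.0367), and its second probe gave 0.52 (0.0790). PGRMC1, which binds ferrochelatase, was higher by 0.43 (limma adjusted p = 0.0349). LONP1, a matrix protease that degrades ALAS1, was lower by 1.58 on the log2 scale (log2 fold change -1.58, limma adjusted p = 0.0302). SLC25A39, a mitochondrial carrier linked to glutathione, was at -1.27 (limma adjusted p = 0.0395). CLPX, the unfoldase that acts on the synthases, was at -0.46 (SE 0.119, limma adjusted p = 0.0213), with its groups apart. Of these 6, TMEM14C kept its call when any 1 array was left out. CLPX lost it without miR-1225-3p replicates 2 or 3 or scrambled replicates 2 or 4. LONP1 kept it only without miR-1225-3p replicates 1 or 5 or scrambled replicate 2, SLC25A39 only without miR-1225-3p replicates 1 or 5, and ABCB10 and PGRMC1 only without miR-1225-3p replicate 5 or scrambled replicate 5 (adjusted p up to 0.0887 over these leave-outs). The scaling also bore on these calls. TMEM14C was at 0.42 with the normexp correction (limma adjusted p = 0.0771) and ABCB10 at 0.45 (0.0589), while at the 75th percentile SLC25A39 was at -0.83 (0.0575) and CLPX at -0.05 (0.810). CLPX was at -0.32 after quantile normalization (0.0610), and none of the 6 passed without normalization. ABCB6, a porphyrin transporter, was at 0.69 (limma adjusted p = 0.0784), and SLC25A37, the erythroid mitoferrin, at 0.43 (0.0570).

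Among the 6 tested genes of heme breakdown and transport, FLVCR1, the heme exporter, was higher by 0.50 (SE 0.154, limma adjusted p = 0.0334). This was the only call of the 6, where 35% of all genes were called. FLVCR1 kept this call only without miR-1225-3p replicate 5 or scrambled replicate 5, with an adjusted p of up to 0.0812 otherwise. HMOX1, the inducible heme oxygenase, was at -0.40 (limma adjusted p = 0.168). The probes of SLC48A1, a lysosomal heme transporter, disagreed, with -0.32 (0.199) for the brighter and -1.17 for the dimmer (limma adjusted p = 0.0141). FLVCR2 and ABCG2 were not well above background on any array.

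Of the 8 regulators tested 3 passed, all lower, beside 35% of all genes called and 18.1% called lower. Once miR-1225-3p replicate 5 was left out 5 passed, all lower, beside 55.4% of all genes called. Among these 5, NRF1 was well above background on 1 miR-1225-3p array and 3 scrambled arrays. It entered the test through its scrambled arrays alone, as did NR1D2 below, so that some difference had to follow from the filter. BACH1, the heme-sensing repressor of HMOX1 and globin genes, was at 9.64, 9.12, 8.82, 8.88 and 10.02 on miR-1225-3p arrays 1 to 5. Scrambled arrays 1 to 5 gave 10.34, 10.53, 10.46, 10.52 and 10.31. All miR-1225-3p arrays were lower, a log2 fold change of -1.14 (SE 0.230, limma adjusted p = 0.0139, exact permutation p = 0.00794). EIF2AK1, the heme-regulated kinase that slows translation when heme is short, was at -0.87 (SE 0.189, limma adjusted p = 0.0150), again with the groups apart. NR1D2, a heme-binding nuclear receptor, was at -1.99 (limma adjusted p = 0.0150), but it was well above background on only 1 of the 5 miR-1225-3p arrays, entered the test through its scrambled arrays alone, and was at -0.48 with the normexp correction. BACH1 and EIF2AK1 kept their calls when any 1 array was left out, and lost them without normalization (limma adjusted p = 0.123 and 0.141). GATA1, the master factor of both lineages, was at 9.88, 8.92, 8.47, 7.88 and 10.02 on miR-1225-3p arrays 1 to 5 and between 9.81 and 10.39 on the scrambled arrays. Its log2 fold change of -1.04 did not pass (limma adjusted p = 0.0572), and without miR-1225-3p replicate 5 it was -1.28 (0.0120). The probes of HIF1A, a factor of the hypoxia response, disagreed, with 0.27 (0.204) for the brighter and -1.17 for the dimmer (limma adjusted p = 0.0258).

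**Figure D5:**
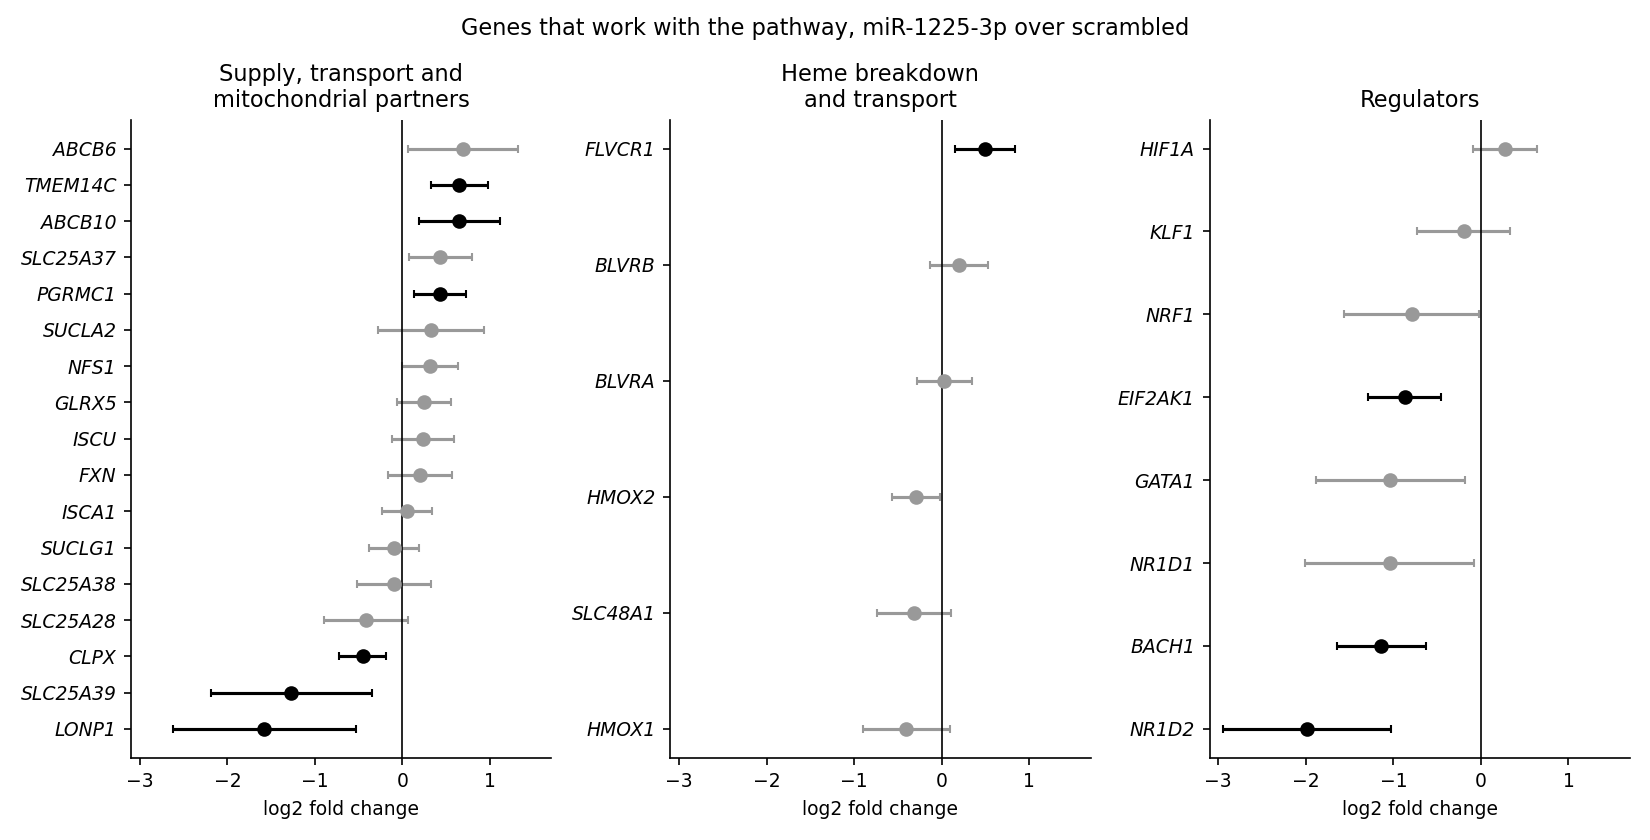
Log2 fold change with 95% interval (limma, 10 arrays) of the 31 tested genes that work with the pathway, in 3 panels and ordered by value, black where the adjusted p was under 0.05. The supply genes spread from -1.58 (LONP1) to 0.69 (ABCB6), while 7 of the 8 regulators lie below 0. Of all 17379 genes, 8122 lie above 0. NR1D1, NR1D2 and NRF1 entered the test through their scrambled arrays alone, so that some difference had to follow from the filter.

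Markers of the lineages these cells could take were read on the same arrays. Of 8 megakaryocyte genes 7 were tested, all below 0, where 8122 of all 17379 genes were above 0. Of the 7, 3 passed, beside 35% of all genes called and 18.1% called lower. These were ITGA2B, the platelet integrin (-1.39, limma adjusted p = 0.0437), NFE2 (-0.43, 0.0255) and FLI1 (-0.60, 0.0289). Without miR-1225-3p replicate 5 there were 6, all lower, where 55.4% of all genes were called. Among these 6, GP1BA was well above background on 1 miR-1225-3p array and 3 scrambled arrays. It entered the test through its scrambled arrays alone, so that some difference had to follow from the filter. PF4 was not well above background on any array. Of 10 tested erythroid genes 2 passed, in opposite directions, with HBE1, the embryonic globin, at -1.71 (limma adjusted p = 0.0165) and EPB42, a membrane skeleton protein, at 0.67 (0.0321). This is below the 35% of all genes called. Once miR-1225-3p replicate 5 was left out 4 passed, below the 55.4% of all genes called then. Among these 4, AHSP was well above background on 4 miR-1225-3p arrays and 2 scrambled arrays. It entered the test through its miR-1225-3p arrays alone, so that some difference had to follow from the filter. HBG1, a fetal globin, lay, on its brighter probe, between 17.61 and 18.78 on all 10 arrays. Among markers of other blood cells, CD2 and MS4A1 were not well above background on any array, while CD3D, CD79A and CD14 were on all 10. CD79A, a B cell gene, was at -1.47 (limma adjusted p = 0.0626) and, with miR-1225-3p replicate 5 left out, at -1.85 (0.0120). CD14, a monocyte gene, was at 0.36 (0.475), and CD3E was at 1.96 (0.0327), above background on 3 miR-1225-3p arrays and 1 scrambled array. CD3E thus entered the test through its miR-1225-3p arrays alone, so that some difference had to follow from the filter. The part of these shifts in the results for the enzymes was not tested.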

How the data were processed

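Total RNA of MEG-01 cells was labelled with Cy3 and hybridized to Agilent SurePrint G3 arrays, with 5 arrays per group. The authors deposited the scanner output, which holds for each spot an intensity after background correction (the processed signal) beside intensities for the median signal and the background. They also deposited a table of normalized log2 values for 29271 probes. Per the labels the images were read with Feature Extraction 10.7.3.1, a version that differs from the one in the methods. The authors' log2 values correlated with those computed here at 0.848 to 0.988 per array after centring each probe, the lowest on scrambled replicate 5. Column medians of that table ran from 4.769 to 5.151, and its centring is not stated.

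From the processed signal, log2 values were brought to a common scale by cyclic loess, the method the study names (limma 3.58.1, R 4.3.3, 3 iterations). Control spots (4259) and outlier spots were dropped, and repeated spots were averaged per probe. A probe stayed (20648 did) if it was well above background on at least 3 of 5 arrays in one group or the other, and the brightest such probe stands for its gene. Names came from RefSeq accessions, and 24910 probes matched a symbol. The test between groups was limma's (lmFit, eBayes, Benjamini-Hochberg over 17379 genes, threshold 0.05) and, for single values, an exact two-sided permutation test, whose smallest p for 5 against 5 is 0.00794. The fit was tested on simulated data. The methods' subtraction of the log geometric mean of controls was not repeated.

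All 8 enzymes are described. Of the lists of genes around the pathway, those past the threshold and the largest change of each list are named by rule, as are the 5 genes most like FECH, and ABCB6, SLC25A37, HMOX1, SLC48A1, GATA1, HIF1A and the markers were named after their values were seen. The members and lists were chosen with earlier results of these data known, and some genes of these lists are not reported here. Alternatives covered the scaling, the source of the values (normexp with an offset of 50 used the median signal), the filter, outlier spots, how probes stand for a gene, the test, a block for slide or replicate number, and the loss of each array. Promoter and microRNA sequences are from RefSeq (GRCh38.p14). No array coordinates are given.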

Additional observations from a re-analysis of the deposited data

Results flagged for a closer look

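In groups of 5 arrays, 80 groups of values of the enzymes and of the genes around the pathway were examined for a single array far from the others by Dixon's criterion. It marked 6 groups, where chance alone gives about 4. Among the enzymes, ALAS2 stood at 12.45 on miR-1225-3p replicate 4, above the other 4 arrays of its group, and FECH stood at 7.64 on miR-1225-3p replicate 5, below them. On miR-1225-3p replicate 5, TMEM14C stood at 12.86 and FLVCR1 at 7.58, each below the rest of its group. Among the scrambled arrays, CLPX stood at 10.13 on replicate 5 and NRF1, a factor of mitochondrial genes, at 3.81 on replicate 1, again below the rest. Of these 6 values 3 belong to miR-1225-3p replicate 5, the array that also stood apart on the first principal component.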

How the results depend on the processing

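ALAS1 and ALAD kept their direction in all alternatives and their calls in 24 of 27 and 24 of 26. The kept calls of ALAD do not stand as support, since it passed the filter through its scrambled arrays alone. ALAS1 lost its call without normalization (limma adjusted p = 0.143), and both genes lost theirs with a replicate block and within slide 2 alone. FECH kept its direction in 27 of 27 and its call in 22, PPOX its direction in 27 and its call in 11, and CPOX gained a call in 5. UROD turned to 0.52 (75th percentile), 0.038 (quantile normalization) and 0.095 (no normalization). Over the loss of each array UROS ran from -0.32 to 0.031, the latter without miR-1225-3p replicate 4. The shift of ALAS2 against ALAS1 kept its direction and its call in every alternative run, between 0.78 and 1.48. The number of enzymes past the threshold, 4, became 7 at the 75th percentile, 1 without normalization, 0 with a replicate block and 0 within slide 2, and ran from 2 to 5 when 1 array was left out. The number of genes around the pathway, 10, became 14, 1, 0 and 0 in the same order, 5 if dim probes were kept, 23 under array weights and 16 under a slide block that left out miR-1225-3p replicate 5. With 1 array left out it ran from 4 (miR-1225-3p replicate 2 or scrambled replicate 4) to 16 (miR-1225-3p replicate 5). The filter and normalization were not redone in these leave-outs, and both counts are to be read against the calls over all genes given below. The median of the enzymes, 0.12, became 0.67 at the 75th percentile, 0.24 without normalization and 0.32 over probes above background on all 10 arrays, where ALAD was no longer tested, and ran from 0.08 to 0.14 when 1 array was left out. The cause was not tested for the other shifts.

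Over all genes, limma called 6091, of which 51.6% were lower. At the 75th percentile it called 7147 (36.2% lower), after quantile normalization 6146 (40.9%), without normalization 1266 (86.3%), with no filter 3411, with array weights 11757 and without miR-1225-3p replicate 5 9624. With a replicate block it called 0 (7474 at an unadjusted p under 0.05), and within slide 2 alone 0 (1220). When another single array was left out it called 2129 to 4705. The deviations of same-numbered arrays correlated at -0.40 to 0.07, which gave no sign that replicate numbers pair the samples. These correlations cannot exclude a pairing, since miR-1225-3p replicate 5 stood apart from its group. The slide block without miR-1225-3p replicate 5, and the scalings of the shift of ALAS2 against ALAS1 other than no normalization, were chosen after seeing the data. Signals near background limit ALAD, NR1D1, NR1D2, NRF1, GP1BA, AHSP and CD3E.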
